A study of Papio anubis and Macaca mulatta with 6 samples.

Results

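The platelet-derived growth factor (PDGF) family was followed in single testis cells of immature baboons and rhesus monkeys through 4 ligand genes, PDGFA, PDGFB, PDGFC and PDGFD, and 2 receptor genes, PDGFRA and PDGFRB. The genes were taken by symbol from the gene list of each species. All 6 stood among the 34178 genes listed in the baboon, and 5 stood among the 21356 genes listed in the rhesus monkey. PDGFRA was not found by symbol among the rhesus genes, 4811 of which carry no symbol, and is not analysed here in that species.

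The study profiled unselected testis cells of 2 olive baboons and 2 rhesus macaques in 6 droplet libraries. Baboon 1 gave libraries 1A and 1B, baboon 2 gave 1 library, rhesus 1 gave 1 library, and rhesus 2 gave libraries 2A and 2B. The 10x Genomics 3′ chemistry was version 3 for baboon 2 and version 2 for all others, so that a difference between the baboons and a difference between the chemistries cannot be told apart. No treatment of the animals was described, and the tissue came from necropsies after euthanasia for another purpose. The sources used here give a newborn and an animal of 26 months for one species and animals of 15 and 20 months for the other, but they differ on which species is which, and no age is assigned to an animal. Tissue was digested with collagenase and then with trypsin, and interstitial cells were washed away in between, which limits what shares of interstitial cells can say.

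PDGF ligands are secreted dimers that bring receptor chains together and switch on their tyrosine kinases. PDGF-A and PDGF-B are cut by furin-like enzymes inside the cell, whereas PDGF-C and PDGF-D are released in a latent form and activated by proteases outside it. The alpha receptor is bound by the A, B and C chains and the beta receptor mainly by the B and D chains. Endothelial PDGF-B is known to recruit pericytes, the contractile cells of small vessels that carry the beta receptor, and in the rodent testis PDGF-A from the tubule acts on interstitial cells with the alpha receptor that give rise to Leydig cells.

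In the baboon assembly Panubis1.0, PDGFA lies at chromosome 4:148556373-148577154, PDGFB at 16:11469679-11492710, PDGFC at 3:32381295-32597127, PDGFD at 12:30165098-30351067, PDGFRA at 3:98389711-98450489 and PDGFRB at 5:142872082-142914239. In the rhesus assembly Mmul_10, PDGFB lies on the plus strand at chromosome 10:12323195-12347665, and the others lie on the minus strand, with PDGFA at 3:33567498-33590664, PDGFC at 5:154396282-154615849, PDGFD at 14:97177983-97426298 and PDGFRB at 6:147628117-147670191. The counts were made per gene, so that no transcript or exon is resolved.

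Between 5569 and 11168 cells were kept in each library, 23057 in the baboons and 26473 in the rhesus monkeys, with median depths of 1445 to 2743 UMIs, the molecular tags that count transcripts. Pairs of libraries shared 1 to 145 barcodes, at most 1.65% of the smaller library. Clusters made without the PDGF genes and their pathway were named from marker genes, and the names carry "-like" because they rest on markers alone. The baboon cells fell into Sertoli-like (12861 and 4490 cells in baboons 1 and 2), stroma-like (1382 and 2247), endothelial-like (180 and 204), germ-like (150 and 158), pericyte-like (97 and 57) and macrophage-like cells (40 and 78). A further baboon cluster led by STC1, COL2A1 and HAPLN1 (428 and 685 cells) had no name. The rhesus cells fell into stroma-like (5760 and 9548 cells in rhesus 1 and 2), Sertoli-like (4046 and 4105), Leydig-like (373 and 195), endothelial-like (142 and 612), germ-like (481 and 86), pericyte-like (127 and 269), macrophage-like (126 and 85) and peritubular myoid-like cells (22 and 76). Markers of pericytes and of myoid cells were both high in the baboon pericyte-like cells. They made up 0.889% and 1.30% of UMIs in baboon 1 and 0.535% and 1.07% in baboon 2. The main clustering did not separate these cell types. A finer clustering gave 54 and 29 pericyte-like and 65 and 37 peritubular myoid-like cells in baboons 1 and 2. Values given for baboon pericyte-like cells cover both cell types unless an alternative is named. The baboon macrophage-like cells carried lymphoid markers as well, at 0.395% and 0.301% of UMIs beside 0.649% and 0.692% for macrophage markers, and a gate on marker UMIs in single cells found 21 and 26 lymphoid-like and 13 and 23 macrophage-like cells. Lymphoid markers were also found in the endothelial-like cells of rhesus 1. The same gate found 50 lymphoid-like and 32 endothelial-like cells in rhesus 1, against 0 and 434 in rhesus 2.

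Levels are given as CPM, the UMIs of a gene in every 1000000 UMIs of a class within an animal, and the log2 difference is that of a class from the mean of the other classes in edgeR, with its standard error (SE). A difference was called where edgeR's quasi-likelihood test gave a Benjamini-Hochberg adjusted p under 0.05 over all genes tested. Of 36 pairs of a PDGF gene and a class tested in the baboon, 9 were called, 5 higher and 4 lower, and over all pairs of a gene and a class 10% were called higher and 3.61% lower. In the rhesus monkey 3 of the genes had enough UMIs to be tested, and 7 of their 24 pairs were called, 5 higher and 2 lower, against 7.72% higher and 2.74% lower over all pairs. The tests rest on 2 animals per species. A class with 0 UMIs of a gene had a very low fitted level, which entered the mean of the other classes. The log2 differences of the remaining classes can then exceed those seen between their CPM values.

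**Figure D1:**
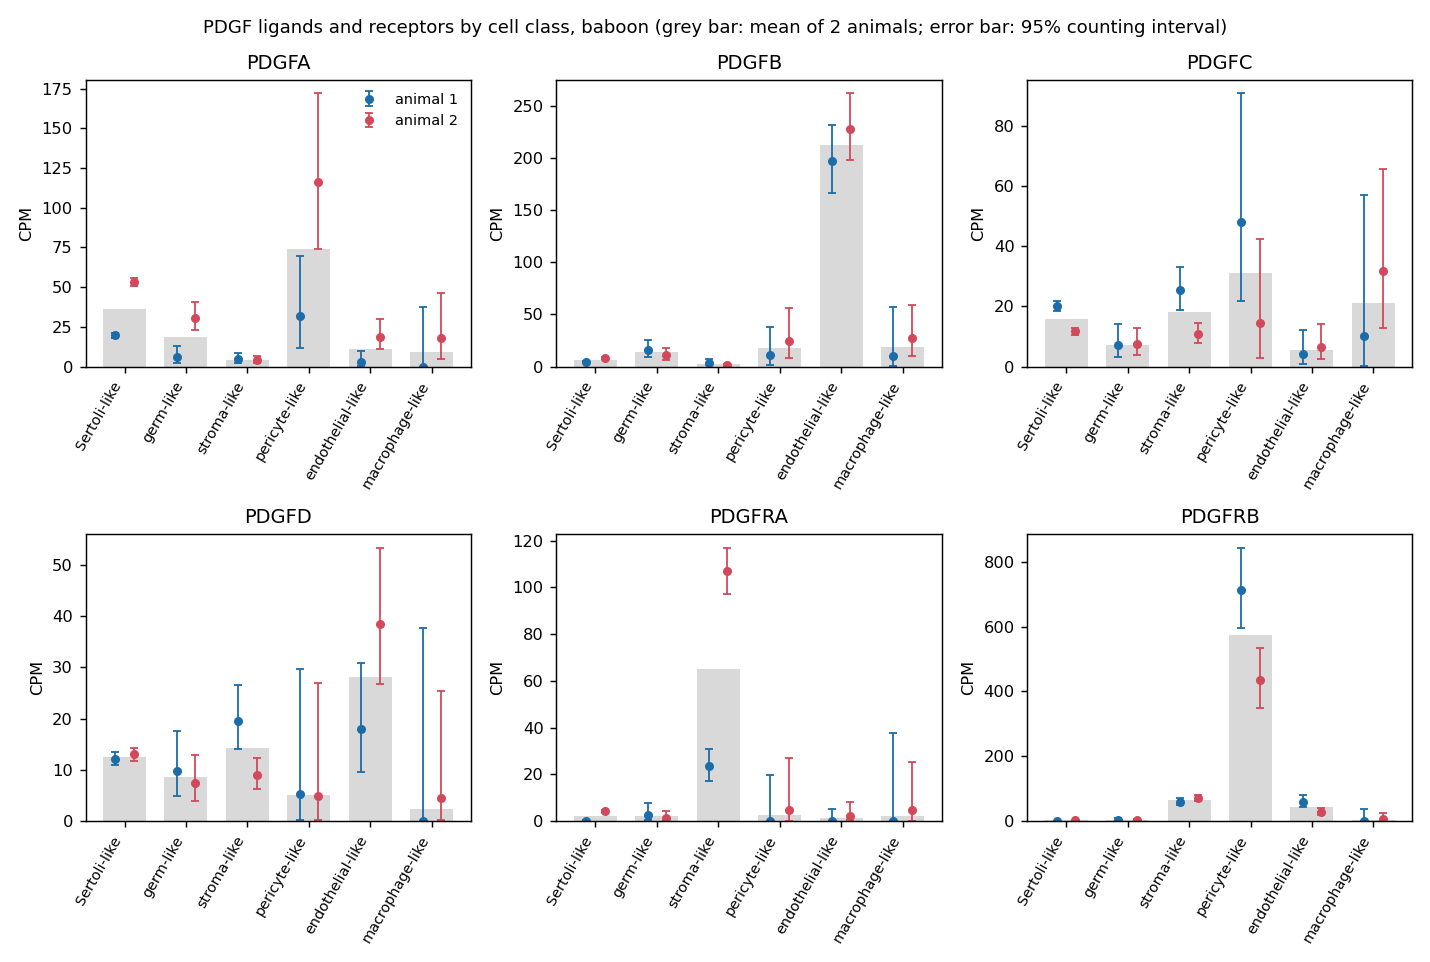
Level of each of the 6 PDGF genes in the 6 baboon classes, as CPM on a linear axis that differs between panels. Points are the animals with exact 95% Poisson intervals for counting error only, and grey bars are the means of the 2 animals. PDGFB stands highest in endothelial-like cells (197 and 228), PDGFRB in pericyte-like cells (713 and 434) and PDGFRA in stroma-like cells (23.4 and 107).

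PDGFA, the ligand chain known in the testis as a product of the tubule, gave 2596 UMIs in 1940 baboon cells. The Sertoli-like cells held 96.1% and 94.3% of the PDGFA UMIs in named classes in baboons 1 and 2, but they also held 88% and 82.9% of the UMIs of all genes there. The level in Sertoli-like cells was 19.7 and 53.2 CPM (36.5 ± 23.7, mean ± SD, n = 2), from 613 and 1837 UMIs. Baboon 2 was higher than baboon 1 in 5 of the 6 classes, and the ranges of neighbouring classes in the order of PDGFA levels all overlapped. Pericyte-like cells held 31.9 and 116 CPM from only 6 and 24 UMIs, germ-like cells 6.27 and 30.6, endothelial-like cells 2.77 and 18.7, macrophage-like cells 0 and 18.2, and stroma-like cells 4.77 and 4.09. In edgeR without a block 0 of 6 baboon PDGFA differences were called, against 2 at an unadjusted p under 0.05 and 2 in DESeq2. With the animal as a block in edgeR, 3 classes passed: Sertoli-like cells (log2 difference 1.18, SE 0.55 without the block, adjusted p = 0.201 without it and 0.00276 with it), pericyte-like cells (2.48, SE 0.69, adjusted p = 0.0631 and 0.00118) and stroma-like cells (-2.27, SE 0.76, adjusted p = 0.0818 and 0.00158). DESeq2 gave an adjusted p of 0.0196 for the pericyte-like and 0.0332 for the stroma-like cells. For comparison, edgeR with the block called 2011 of the 12435 genes tested as higher in baboon Sertoli-like cells. It called 830 as higher in pericyte-like cells and 911 as lower in stroma-like cells. Without the block the shares of genes called were 7.82%, 5.24% and 2.52%. PDGFA in free RNA, in droplets with too few UMIs to hold a cell, stood at 5.54 to 10.8 CPM across the baboon libraries. It lay above the level in stroma-like cells of both animals and below that in Sertoli-like cells. These free RNA levels rest on 14, 1 and 3 UMIs in 1A, 1B and baboon 2.

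Rhesus PDGFA gave 432 UMIs in all. Sertoli-like cells held 14 and 30.3 CPM in rhesus 1 and 2 (22.1 ± 11.5, mean ± SD, n = 2), from 121 and 242 UMIs that made up 76.1% and 90% of the gene's UMIs in named classes, where Sertoli-like cells held 39.7% and 30.4% of the UMIs of all genes. Both values lay above those of every other rhesus class but the peritubular myoid-like cells. The log2 difference in Sertoli-like cells was 3.20 (SE 0.60, edgeR adjusted p = 0.00325), in a class where 8.36% of the 9404 genes tested were called higher, and without the Sertoli-like sum of rhesus 2 it was 2.83 (edgeR adjusted p = 0.0886). Peritubular myoid-like cells held 44 and 28.3 CPM, which rest on 2 and 4 UMIs. Their log2 difference of 3.86 (SE 0.99) had an edgeR adjusted p of 0.0510, against 0.0477 with the animal as a block and 0.00323 in DESeq2. With the block edgeR called 343 of the 9404 genes as higher in this class. Germ-like cells held 6.06 and 1.76 CPM, pericyte-like cells 4.78 and 4.6, and stroma-like cells 2.69 and 1.07. Free RNA held 6.05 CPM of PDGFA in rhesus 1 and 12.8 and 12.1 in 2A and 2B, from 19, 17 and 17 UMIs. The germ-like value of rhesus 1 lay at that level, and the other germ-like, pericyte-like and stroma-like values lay below free RNA of their animal. Sertoli-like values lay above it. The part of free RNA in these counts was not tested. No PDGFA UMI was found among 1261697 and 817021 UMIs of Leydig-like cells, which allows levels of up to 2.38 and 3.67 CPM.

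**Figure D2:**
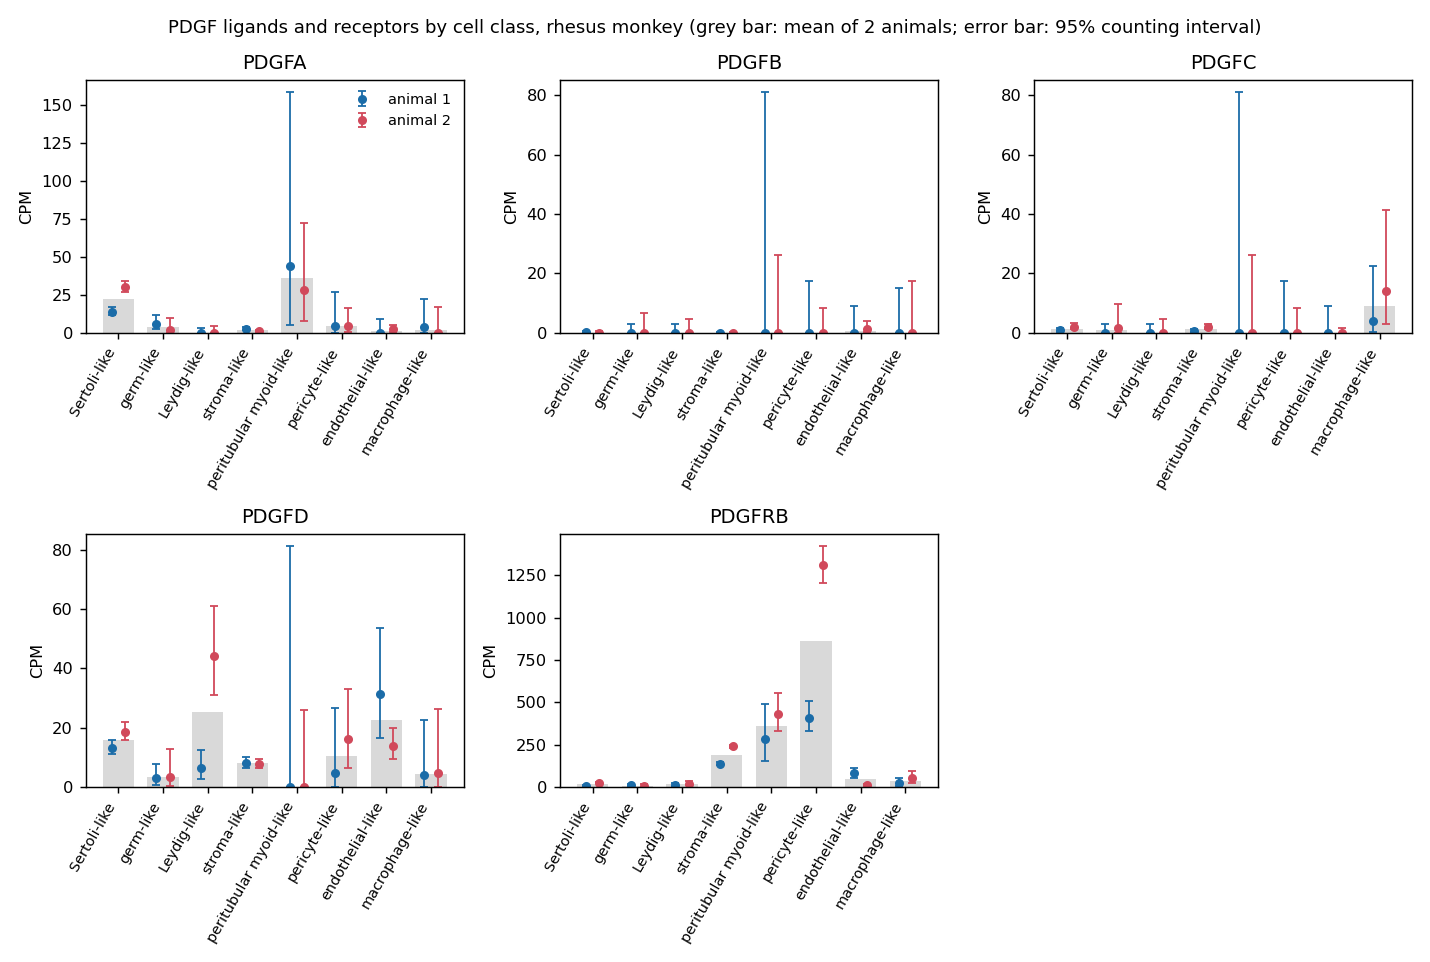
Level of the 5 PDGF genes listed in the rhesus monkey in 8 classes, as CPM on a linear axis that differs between panels. Points are the animals with exact 95% Poisson intervals for counting error only, and grey bars are the means of the 2 animals. PDGFRB is highest in pericyte-like cells (411 and 1311), followed by peritubular myoid-like (286 and 431) and stroma-like cells (139 and 240), and PDGFB was counted only 4 times.

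PDGFB, the ligand chain that endothelium uses to recruit pericytes, marked the baboon endothelial-like cells. Their level was 197 and 228 CPM in baboons 1 and 2 (213 ± 22.2, mean ± SD, n = 2), from 142 and 208 UMIs in 180 and 204 cells. The next class, macrophage-like cells, held 10.2 and 27.3, and both endothelial values lay above every value of the other classes. The log2 difference was 4.61 (SE 0.28, edgeR adjusted p = 5.4e-07), where 10.2% of the genes tested were called higher in endothelial-like cells. The call held under all 14 alternatives run, with log2 differences of 4.45 to 5.92. Pericyte-like cells held 10.6 and 24.1 CPM, and germ-like cells 16.1 and 11.

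Sertoli-like cells had little PDGFB each, at 4.8 and 8.26 CPM, but as the most numerous class they held 149 and 285 UMIs, 46.7% and 54.1% of those in named classes. PDGFB was called lower there than in the other classes (log2 difference -1.57, SE 0.36, edgeR adjusted p = 0.0133), as were 6.84% of the genes tested. It was also called lower in stroma-like cells, at 3.34 and 1.2 CPM (log2 difference -3.39, SE 0.48, edgeR adjusted p = 8.5e-04), as were 2.52% of the genes tested. Free RNA held 2.42, 16.6 and 7.22 CPM of PDGFB in libraries 1A, 1B and baboon 2, from only 4, 3 and 2 UMIs. The Sertoli-like and stroma-like levels lay in or below that range, but the Sertoli-like level of baboon 2 lay above free RNA of its own library. The Sertoli-like call was lost without the sum of baboon 1 (-1.29, edgeR adjusted p = 0.143), and the direction turned at a finer clustering (0.07, adjusted p = 1.00), and in classes gated on marker UMIs it was -0.39 (adjusted p = 1.00). The stroma-like call was lost at the finer clustering as well (-1.77, edgeR adjusted p = 1.00), against other classes summed (-2.30, adjusted p = 0.0967) and in classes gated on marker UMIs (-3.08, adjusted p = 1.00). The finer clustering added Leydig-like and peritubular myoid-like classes to the comparison. Its Leydig-like class was led by STC1, COL2A1 and HAPLN1, as was the unnamed cluster of the main clustering. The marker gate added lymphoid-like and peritubular myoid-like classes.

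In the rhesus monkey PDGFB gave 4 UMIs in all 26473 cells, 3 in endothelial-like cells of rhesus 2 and 1 in a Sertoli-like cell of rhesus 1. Endothelial-like cells of rhesus 2 held 1.39 CPM, from 3 of 2153959 UMIs, and those of rhesus 1 held 0 of 415708 UMIs, which allows up to 7.22 CPM. The gene fell below the count filter and was not tested.

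PDGFC, a latent ligand for the alpha receptor, was spread over the baboon classes, and 0 of 6 differences were called in edgeR without a block or in DESeq2, against 2 at an unadjusted p under 0.05 in edgeR. Of 1190 UMIs in 1099 cells, Sertoli-like cells held 89.4% and 84.7% of those in named classes, close to their share of the UMIs of all genes (88% and 82.9%), at 20 and 11.7 CPM. Stroma-like cells stood at 25.3 and 10.8, macrophage-like cells at 10.2 and 31.8, germ-like cells at 7.16 and 7.35, and endothelial-like cells at 4.16 and 6.59. The levels of Sertoli-like, stroma-like, macrophage-like and pericyte-like cells overlapped between animals. Pericyte-like cells held 47.9 and 14.5 CPM from 9 and 3 UMIs, and in baboon 1 the libraries gave 28.7 in 1A and 103 in 1B. With the animal as a block in edgeR, PDGFC passed as lower in germ-like cells (log2 difference -1.39 and SE 0.57 without the block, adjusted p = 0.0838 without it and 0.0189 with it), where 9.55% of the genes tested were called lower without the block. With the block 1921 of the 12435 genes were called lower there. Free RNA of 1A and 1B held 21.2 and 27.7 CPM of PDGFC, from 35 and 5 UMIs, above the Sertoli-like level of baboon 1. Free RNA of baboon 2 held 3.61, from 1 UMI.

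Rhesus PDGFC was counted 63 times and was not tested. The macrophage-like cells held 4.06 and 14.1 CPM, from 1 and 3 UMIs, Sertoli-like cells 0.81 and 2, and stroma-like cells 0.621 and 2.07. The macrophage-like values lay above those of all other rhesus classes, but they rest on 4 molecules.

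PDGFD, the latent ligand of the beta receptor, was called higher in baboon endothelial-like cells, the same class that was highest in PDGFB. Endothelial-like cells held 18 and 38.4 CPM in baboons 1 and 2 (28.2 ± 14.4, mean ± SD, n = 2), from 13 and 35 UMIs. Stroma-like cells held 19.6 and 8.89, so that the stroma-like value of baboon 1 lay above the endothelial-like value of the same animal. The log2 difference in endothelial-like cells was 1.99 (SE 0.46, edgeR adjusted p = 0.0124). Without the endothelial-like sum of baboon 2 it was 1.43 (edgeR adjusted p = 0.315), against all other classes summed it was 1.20 (adjusted p = 0.104), and in cells above the UMI cutoff it was 1.31 (adjusted p = 0.0895). Sertoli-like cells held 12.1 and 13 CPM and 85.1% and 83.9% of the PDGFD UMIs in named classes, and germ-like cells held 9.85 and 7.35. Pericyte-like cells of each baboon held 1 UMI. PDGFD in free RNA was 15.1 in 1A, 0 in 1B and 14.4 in baboon 2, from 25, 0 and 4 UMIs.

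Rhesus PDGFD was called higher in Leydig-like cells, the steroid-making interstitial cells, but the animals stood apart. Rhesus 1 held 6.34 CPM from 8 UMIs and rhesus 2 held 44.1 from 36 UMIs. The log2 difference was 3.02 (SE 0.76, edgeR adjusted p = 0.0381), where 4.24% of the genes tested were called higher, and without the Leydig-like sum of rhesus 2 it was 1.18 (edgeR adjusted p = 0.871), and against all other classes summed 1.66 (adjusted p = 0.436). The mean of the other classes included the myoid-like cells, with 0 PDGFD UMIs and a fitted log2 difference of -8.03 (SE 4.41). As log2(CPM + 1), the Leydig-like level lay 0.17 above the mean of the other classes in rhesus 1 and 2.62 in rhesus 2. Endothelial-like cells held 31.3 and 13.9 CPM (log2 difference 2.34, SE 0.87, edgeR adjusted p = 0.117). Those of rhesus 1 also carried lymphoid markers, and the part of lymphoid cells in their PDGFD level was not tested. Sertoli-like cells held 13.3 and 18.6, pericyte-like cells 4.78 and 16.1, stroma-like cells 8.08 and 7.87, macrophage-like cells 4.06 and 4.7 and germ-like cells 3.03 and 3.52, and no PDGFD UMI was found in the myoid-like cells, whose depth allows levels of up to 66 and 21.2. Free RNA stood at 8.3 to 9.27 across the rhesus libraries, between the Leydig-like values of the 2 animals.

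The alpha receptor gene PDGFRA, whose protein binds the A, B and C chains, was a stroma transcript in the baboon. Stroma-like cells held 23.4 and 107 CPM in baboons 1 and 2 (65 ± 58.9, mean ± SD, n = 2), from 49 and 444 UMIs, and no other named class exceeded 4.82. The log2 difference was 5.12 (SE 0.88, edgeR adjusted p = 0.00324), in a class where 8.23% of the genes tested were called higher. The level differed between the animals and also between the libraries of baboon 1, with 29.1 in 1A and 12.5 in 1B. Without the stroma-like sum of baboon 2 the log2 difference was 3.65 (edgeR adjusted p = 0.114), and against all other classes summed it was 5.18 (adjusted p = 0.106). Free RNA held 0, 11.1 and 3.61 CPM of PDGFRA in 1A, 1B and baboon 2, from 0, 2 and 1 UMIs. The unnamed cluster led by STC1 held 18.5 and 156 CPM from 12 and 291 UMIs, with the same order of the animals as in stroma-like cells.

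Sertoli-like cells held 3 and 142 PDGFRA UMIs in baboons 1 and 2, or 0.0966 and 4.12 CPM. Of the 142, 31 came from 277 cells of 1 Sertoli-like cluster in baboon 2, where the level was 61 CPM and that of PDGFRB was 35.4. Stroma markers made up 0.534% of UMIs in those cells against 0.0101% in the 2287 cells of the same cluster in baboon 1, which held no PDGFRA UMI, and their part in the receptor counts was not tested.

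The beta receptor gene PDGFRB, whose protein binds the B and D chains, was highest in the baboon in pericyte-like cells. They held 713 and 434 CPM in baboons 1 and 2 (573 ± 197, mean ± SD, n = 2), from 134 UMIs in 63 of 97 cells and 90 UMIs in 37 of 57 cells. Stroma-like cells came next with 59.6 and 70.7 (65.1 ± 7.82, n = 2), and the 2 classes did not overlap. The log2 difference in pericyte-like cells was 6.11 (SE 0.44, edgeR adjusted p = 4.0e-06), where 5.24% of the genes tested were called higher, and the call held under all 13 alternatives that gave a value, with log2 differences of 5.36 to 9.79. In stroma-like cells the log2 difference was 2.45 (SE 0.49, edgeR adjusted p = 0.00725). Without the stroma-like sum of baboon 2 it was 2.34 (edgeR adjusted p = 0.0628), and at a finer clustering it was 1.53 (adjusted p = 0.0527). Pericyte-like cells held 42% and 17.7% of the PDGFRB UMIs in named classes, against 0.533% and 0.498% of the UMIs of all genes.

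Endothelial-like cells of the baboon held 58.2 and 26.3 CPM of PDGFRB, without a call (log2 difference 1.69, SE 0.56, edgeR adjusted p = 0.0826, and 0.0540 with the animal as a block). These UMIs lay in few cells, 42 UMIs in 11 of 180 cells in baboon 1 and 24 in 10 of 204 in baboon 2, and the libraries of baboon 1 differed, with 31.4 in 1A and 88.4 in 1B. Pericyte markers made up 0.15% and 0.0561% of the UMIs of these cells, and their part in the PDGFRB count was not tested. Sertoli-like cells held 0.483 and 2.75 CPM (log2 difference -4.14, SE 1.06, edgeR adjusted p = 0.0210) and germ-like cells 2.69 and 3.06 (-3.27, SE 1.03, edgeR adjusted p = 0.0289), both called lower, and both below the 7.87 to 14.4 of free RNA. That range rests on 13, 2 and 4 UMIs in 1A, 1B and baboon 2. The germ-like call was lost without the sum of either baboon (-3.20 without baboon 1 and -3.31 without baboon 2, edgeR adjusted p = 0.0903 and 0.0784). With only the cells above the UMI cutoff the log2 difference was -0.29 in germ-like cells (edgeR adjusted p = 0.983) and -1.71 in Sertoli-like cells (adjusted p = 1.00), and in classes gated on marker UMIs it was -2.09 and -0.89 (adjusted p = 1.00 for both). The cutoff left 8 pericyte-like cells in baboon 2, and that class, the highest in PDGFRB, did not enter the comparison.

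Rhesus PDGFRB gave 5903 UMIs in 4424 cells and was called higher in 3 mural and stromal classes. Pericyte-like cells held 411 and 1311 CPM in rhesus 1 and 2 (861 ± 637, mean ± SD, n = 2), from 86 and 570 UMIs. Peritubular myoid-like cells, the contractile cells around the tubule, held 286 and 431 (359 ± 102, n = 2), from 13 and 61 UMIs, and stroma-like cells held 139 and 240 (190 ± 71.4, n = 2). The ranges of pericyte-like and myoid-like cells overlapped, whereas those of myoid-like and stroma-like cells did not. All 3 were called higher, with log2 differences of 4.20 in pericyte-like cells (SE 0.41, edgeR adjusted p = 8.6e-05), 2.66 in myoid-like cells (SE 0.52, adjusted p = 0.00838) and 1.75 in stroma-like cells (SE 0.45, adjusted p = 0.0395). The shares of all genes called higher in these classes were 2.15%, 2.97% and 3.75%. The pericyte-like call was lost against all other classes summed (3.03, edgeR adjusted p = 0.204) and held under the other 10 alternatives that gave a value. The myoid-like call was lost without the sum of rhesus 2 (2.08, edgeR adjusted p = 0.575). The stroma-like call was lost without the sum of rhesus 1 (2.08, adjusted p = 0.0728) or rhesus 2 (1.43, adjusted p = 0.428), and edgeR with DESeq2's size factors gave 1.69 (adjusted p = 0.0508) and summed comparators gave 2.29 (adjusted p = 0.0830). The stroma-like cells held 84.7% and 79% of the PDGFRB UMIs in named classes, against 44.3% and 53.2% of the UMIs of all genes.

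The pericyte-like cells of rhesus 1 were less distinct than those of rhesus 2. The gate on marker UMIs found 8 pericyte-like cells in rhesus 1 and 195 in rhesus 2, beside 127 and 269 in the cluster. Stroma markers made up 0.699% of the UMIs of the cluster's cells in rhesus 1 against 0.254% in rhesus 2, and pericyte markers 0.198% against 0.975%. Whether this bears on the PDGFRB level of 411 against 1311 was not tested. Among the 6 rhesus stroma-like clusters PDGFRB ranged from 87.4 to 243 CPM in rhesus 1 and from 168 to 352 in rhesus 2. The cluster led by HAPLN1, TGFBI and WFDC1 held 222 and 352, the highest stroma-like value in rhesus 2.

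The other rhesus classes held less PDGFRB. Endothelial-like cells held 81.8 and 13.9 CPM, from 34 UMIs in 11 of 142 cells in rhesus 1 and 30 UMIs in 27 of 612 cells in rhesus 2. In rhesus 1 these cells carried all 10 lymphoid markers, at 0.318% of UMIs against 0.000186% in rhesus 2, and pericyte markers at 0.0852% against 0.0561%, and the part of either in the PDGFRB count was not tested. Macrophage-like cells held 24.4 and 51.7, and Leydig-like cells 15.1 and 20.8. Sertoli-like cells held 8.33 and 25.2 (log2 difference -2.45, SE 0.63, edgeR adjusted p = 0.0186) and germ-like cells 9.86 and 7.04 (-3.44, SE 0.75, edgeR adjusted p = 0.00268), both called lower, as were 4.32% and 13.3% of the genes tested in these classes. Free RNA held 28.3 CPM of PDGFRB in rhesus 1 and 99.6 and 106 in 2A and 2B, above the Leydig-like, Sertoli-like and germ-like levels of the same animals, and the part of free RNA in these counts was not tested. The macrophage-like levels of both animals and the endothelial-like level of rhesus 2 also lay below it. The Sertoli-like call was lost without the sum of rhesus 1 (-1.96, edgeR adjusted p = 0.230) or rhesus 2 (-3.10, adjusted p = 0.0737), and the germ-like call held under all 12 alternatives.

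**Figure D3:**
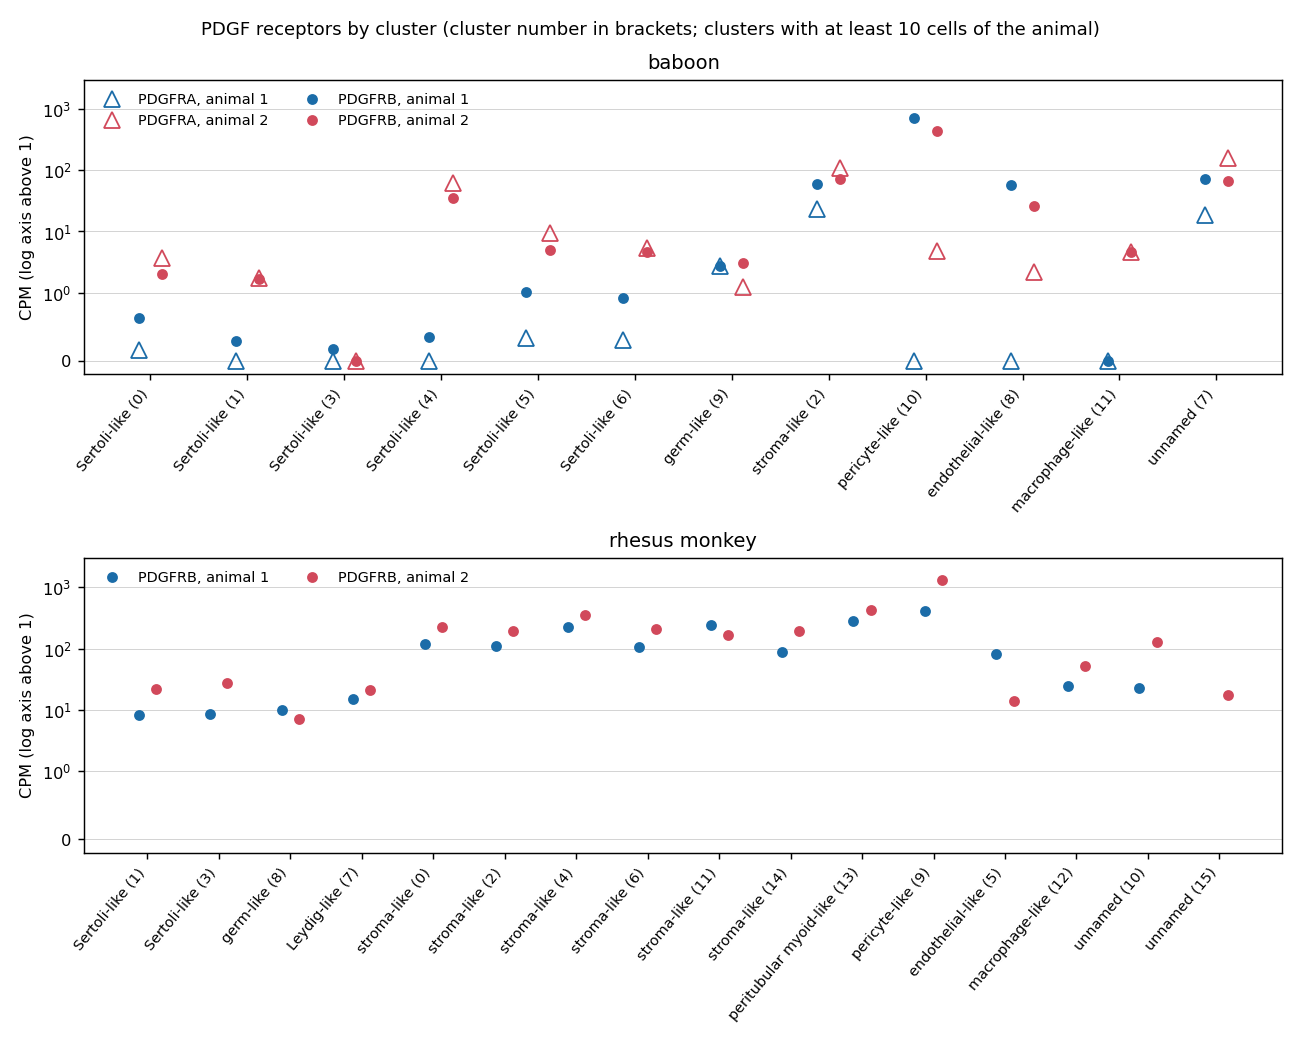
Level of PDGFRB, and of PDGFRA in the baboon, in each cluster with at least 10 cells of the animal, as CPM on an axis that is logarithmic above 1. Circles are PDGFRB and triangles PDGFRA, coloured by animal. The baboon pericyte-like cluster stands far above the others in PDGFRB, and PDGFRA is high in the stroma-like cluster (23.4 and 107) and the unnamed cluster led by STC1 (18.5 and 156).

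To set shares of cells side by side at an equal depth, each cell was thinned to 1000 UMIs, and shallower cells were left out. A PDGFRB UMI was found in 45.3% of 128 baboon pericyte-like cells (exact 95% interval 36.5 to 54.3%), 50% in baboon 1 and 38.0% in baboon 2, against 6.23% of stroma-like, 0.185% of Sertoli-like and 0 of 269 germ-like cells, which allows up to 1.12%. The rhesus PDGFRB shares were 52.4% in pericyte-like cells (22.9% in rhesus 1 and 67.3% in rhesus 2), 31.0% in myoid-like cells and 17.0% in stroma-like cells (11.7% and 20.4%). In rhesus Sertoli-like and germ-like cells the shares were 1.26% and 0.274%. PDGFRA was found in 7.19% of baboon stroma-like cells (6.29 to 8.17%), 2.60% in baboon 1 and 9.33% in baboon 2, against 0.249% of Sertoli-like cells, and at full depth in 3.40% and 16.9% of stroma-like cells.

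The thinning left out 26 pericyte-like, 610 stroma-like and 1658 Sertoli-like baboon cells, and 83 pericyte-like, 11 myoid-like, 3029 stroma-like and 1154 Sertoli-like rhesus cells. At full depth PDGFRB was found in 64.9% of pericyte-like cells in each baboon and in 8.18% and 11.5% of stroma-like cells. In rhesus 1 and 2 the shares at full depth were 38.6% and 81.4% in pericyte-like, 40.9% and 53.9% in myoid-like and 18.6% and 27.8% in stroma-like cells.

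The ligands were found in smaller shares of cells. PDGFB had a UMI in 19.3% of baboon endothelial-like cells (exact 95% interval 15.1 to 24.2%) and in 0.618% of Sertoli-like cells, and at full depth in 39.4% and 44.6% of the endothelial-like cells of baboons 1 and 2. PDGFA had one in 2.77% of baboon Sertoli-like cells (2.51 to 3.03%), 1.93% in baboon 1 and 5.15% in baboon 2, against 0.232% of stroma-like cells, and at full depth the Sertoli-like shares were 4.52% and 27.7%. In rhesus Sertoli-like cells the PDGFA share was 1.94% (1.06% in rhesus 1 and 2.87% in rhesus 2), against 0.114% of stroma-like cells, and at full depth 2.89% and 5.43%.

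**Figure D4:**
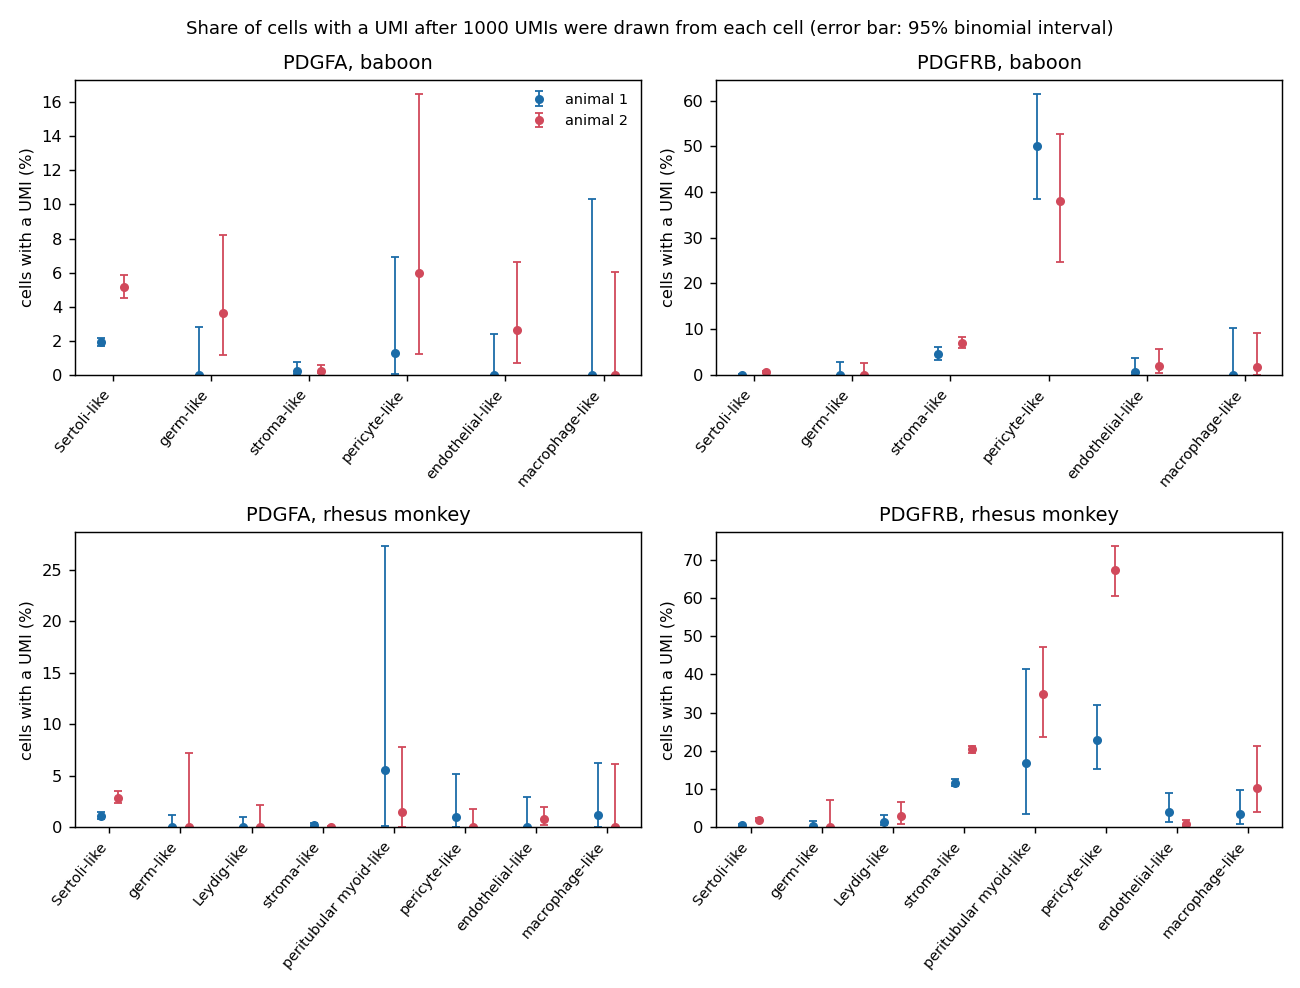
Percent of cells with at least 1 UMI of PDGFA (left) and PDGFRB (right) after thinning each cell to 1000 UMIs, by class and animal, in baboon (top) and rhesus (bottom), with exact 95% binomial intervals for counting error only. PDGFRB was found in 50% and 38.0% of pericyte-like cells in baboons 1 and 2 and in 22.9% and 67.3% in rhesus 1 and 2, and PDGFA intervals are wide in all classes but the Sertoli-like and stroma-like cells.

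Both receptors were present in the baboon stroma-like cells, and their detection in the same cell was counted at the same depth. Of 217 stroma-like cells with a PDGFRA UMI, 8 also had a PDGFRB UMI, or 3.69% (exact 95% interval 1.60 to 7.13%). Among the 2802 stroma-like cells without PDGFRA the share was 6.42% (5.54 to 7.4%), and the intervals overlapped. In the unnamed cluster led by STC1, 6 of 97 cells with PDGFRA had PDGFRB, or 6.19%, against 7.31% of those without. Among Sertoli-like cells 4 of 39 with PDGFRA had PDGFRB, or 10.3% (2.87 to 24.2%). Of the 15654 Sertoli-like cells without PDGFRA the share was 0.16% (0.103 to 0.236%). All of these counts pool the 2 baboons, and the intervals treat cells as independent. At full depth, Sertoli-like cells held 3 PDGFRA and 15 PDGFRB UMIs in baboon 1, against 142 and 95 in baboon 2. The part of this difference between the animals in the pooled Sertoli-like shares was not tested, and no contrast is read from them. At 1000 UMIs per cell most molecules go unseen, and these shares do not show whether a cell made both receptors.

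Other genes of the pathway were taken from a list of 28, in 4 groups: enzymes that process the ligands, binding proteins and co-receptors, adaptors and effectors of the receptors, and dampers of their signalling. In the baboon 24 of them could be tested, and of 144 pairs of gene and class 19 were called higher and 10 lower, beside 10% and 3.61% over all genes and classes. For rhesus 17 could be tested, and of 136 pairs 16 were called higher and 10 lower, beside 7.72% and 2.74%. Altogether 13 pairs were called in the same direction in both species, but the share of all genes called alike was not computed. Of these pairs 10 lay in endothelial-like and germ-like cells, where many genes of any kind were called. In baboon and rhesus 10.2% and 9.32% of all genes were called higher in endothelial-like cells, and 9.55% and 13.3% lower in germ-like cells.

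In endothelial-like cells 8 pathway genes were called higher and 1 lower in the baboon, and 5 higher and 1 lower in the rhesus monkey. Over all genes tested, 10.2% and 9.32% were called higher and 1.37% and 1.5% lower. The adaptors and effectors had 5 of 10 members called higher in the baboon (median log2 difference 1.09, against 0.08 over all genes) and 3 of 7 in the rhesus monkey (1.13 against 0.13). SHC1, an adaptor that binds activated receptors, held 257 and 228 CPM in baboons 1 and 2 and 89 and 361 in rhesus 1 and 2, with log2 differences of 2.98 and 2.44 (edgeR adjusted p = 9.9e-07 and 1.9e-04). The adaptor NCK1 (1.30 and 1.86, adjusted p = 0.0153 and 3.7e-04), the phosphatase PTPN11, also known as SHP2 (1.13 and 1.38, adjusted p = 0.0289 and 0.0212), and the co-receptor NRP1 (2.20 and 1.83, adjusted p = 0.0444 and 7.8e-05) were called higher in baboon and rhesus as well in edgeR. FURIN, which cuts the A and B chains, was called higher in the baboon (3.62, edgeR adjusted p = 9.0e-04). It held 58.2 and 43.9 CPM in baboons 1 and 2, beside a mean of 16.2 in the other classes. Those include macrophage-like cells, with 0 CPM in both baboons and a fitted log2 difference of -10.14 (SE 2.48). LRP1, a scavenger receptor that binds the beta receptor, was called lower in both (-1.69 and -1.95, edgeR adjusted p = 0.00745 and 0.00511). The part of lymphoid cells in the endothelial-like values of rhesus 1 was not tested.

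In stroma-like cells LRP1 was called higher in both species, at 199 CPM in each baboon and 267 and 246 in rhesus 1 and 2 (log2 differences 1.53 and 1.60, edgeR adjusted p = 0.00352 and 0.00326). Stroma-like cells of the baboon had 2 pathway genes called higher and 1 lower, the ubiquitin ligase CBL (-1.66, edgeR adjusted p = 0.00629), and those of the rhesus monkey had 2 higher, LRP1 and NRP1 (NRP1 1.23, adjusted p = 0.00494). Over all genes 8.23% were called higher and 2.52% lower in baboon and 3.75% higher in rhesus stroma-like cells. In pericyte-like cells, where PDGFRB was highest, 2 pathway genes were called higher in each species, where 5.24% and 2.15% of all genes were called higher in baboon and rhesus. They were PLAT, the tissue plasminogen activator that activates PDGF-C (4.53, edgeR adjusted p = 0.00603), and FURIN (3.13, adjusted p = 0.0323) in the baboon, and NRP1 (1.59, adjusted p = 0.00284) and SPARC, a matrix protein that binds PDGF-B (1.79, adjusted p = 0.00736), in the rhesus monkey. PLAT held 47.9 and 33.7 CPM in pericyte-like cells of baboons 1 and 2, beside a mean of 5.32 in the other classes. FURIN also held 47.9 and 33.7 there, beside a mean of 18.2. Macrophage-like cells, 1 of the other classes, held 0 CPM of both genes in both baboons. Both levels rest on few molecules, since the pericyte-like sums held 188060 and 207479 UMIs of all genes. The genes tested also differed between the species. SPARC was not tested in the baboon, and 3 of the 6 ligand-processing genes were tested in the rhesus monkey. NRP1 in baboon pericyte-like cells had a log2 difference of 2.22 (edgeR adjusted p = 0.229). No species difference is read from these calls. In the rhesus myoid-like cells edgeR called 0 of 17 pathway genes, against 4 at an unadjusted p under 0.05, and PTPN11 had the smallest p (1.43, edgeR adjusted p = 0.2).

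In germ-like cells 5 pathway genes were called lower and 2 higher in the baboon, and 7 lower and 1 higher in the rhesus monkey. Over all genes 9.55% and 13.3% were called lower and 23.1% and 23.7% higher. Called lower in both species in edgeR were SHC1 (-1.62 and -1.98, adjusted p = 8.3e-04 and 0.00668), PIK3R1, a regulatory subunit of PI3 kinase (-1.87 and -2.79, adjusted p = 0.00122 and 0.00134), PTPN11 (-1.96 and -2.17, adjusted p = 0.00191 and 0.00431), NRP1 (-2.94 and -2.88, adjusted p = 0.0378 and 4.7e-05) and LRP1 (-1.36 and -2.31, adjusted p = 0.00824 and 5.2e-04). CBL was called higher in baboon germ-like cells (1.59, edgeR adjusted p = 6.7e-04).

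In Sertoli-like cells NRP1 was called lower in both species, at 0.161 and 1.13 CPM in the baboons and 8.79 and 7.26 in the rhesus monkeys (log2 differences -4.48 and -2.71, edgeR adjusted p = 0.00428 and 7.4e-05). Baboon Sertoli-like cells had 3 pathway genes called higher and 2 lower, where 7.82% of genes were called higher and 6.84% lower, and rhesus Sertoli-like cells had 2 higher and 1 lower, where the shares were 8.36% and 4.32%. PLAT was one of the rhesus genes called higher (2.96, edgeR adjusted p = 8.0e-05), at 75.2 and 99.1 CPM. In macrophage-like cells GRB2, the adaptor that links receptors to RAS, was called higher in both species, at 102 and 127 and at 114 and 127 CPM (1.21 and 1.62, edgeR adjusted p = 0.0171 and 6.2e-04). Macrophage-like cells had 2 pathway genes called higher and 1 lower in the baboon (5.63% and 0.965% of all genes) and 4 higher in the rhesus monkey (7.32% of all genes). The part of lymphoid cells in the baboon macrophage-like values was not tested. NRP1 was called lower in rhesus Leydig-like cells (-2.00, edgeR adjusted p = 0.00348), where 0.489% of genes were called lower.

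**Figure D5:**
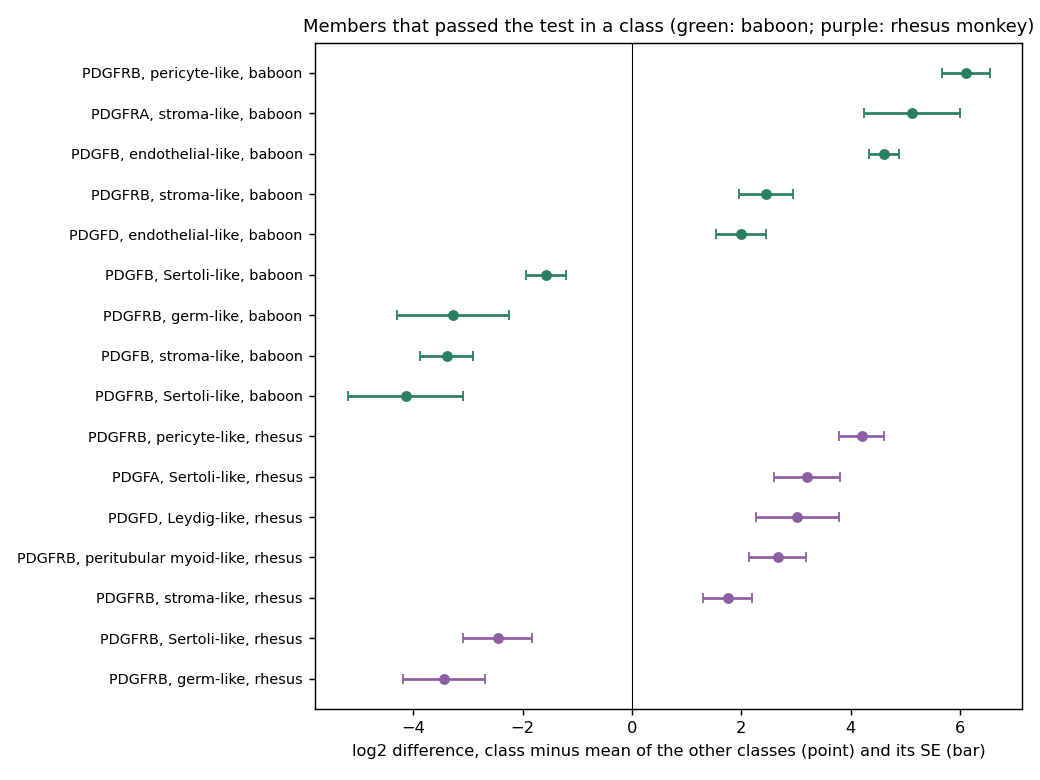
Log2 difference from the mean of the other classes (point) and its SE (bar) for the pairs of a PDGF gene and a class called by edgeR, 9 in the baboon (green) and 7 in the rhesus monkey (purple). PDGFRB in pericyte-like cells lies farthest to the right in both species, at 6.11 and 4.20. The baboon pericyte-like class also covers myoid cells, which form a class of their own in the rhesus monkey.

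The genes whose levels followed each PDGF gene most closely were found by Pearson's r of log2(CPM + 1) over the 12 baboon or 16 rhesus sums of a class in an animal. These sums share animals and libraries, and r is given as a description. PDGFRB in the baboon was most like BGN, the matrix proteoglycan biglycan (r = 0.990), ANO1, a chloride channel (0.978), and IL34, a cytokine (0.975). Baboon PDGFRA was most like CNTNAP4 (0.975), LVRN (0.967) and ENTPD2 (0.956), and baboon PDGFB most like BCL3 (0.898), CYYR1 (0.895) and TIE1, a receptor kinase of endothelium (0.893). Baboon PDGFA was most like PPP1R12C (0.951), NEXN (0.928) and KLHL23 (0.916), PDGFD most like ULK4 (0.945), HLF (0.912) and INSR, the insulin receptor (0.910), and PDGFC most like HEMK1 (0.834), PLP2 (0.833) and C2H3orf18 (0.795). In the rhesus monkey PDGFRB was most like NDRG2 (0.950), GEM (0.921) and ADAMTS1, a secreted protease (0.895). Rhesus PDGFA was most like PYGB (0.879), CNN1, the smooth muscle calponin (0.867), and ISYNA1 (0.847), and PDGFD most like STARD5 (0.893), TELO2 (0.873) and CDK13 (0.847). TIE1 and CNN1 stood on the endothelial and peritubular myoid marker lists used to name classes, so that their likeness partly restates that naming. No gene was named for the same PDGF gene in both species. Each list holds only 3 genes, out of 11016 compared for baboon and 8798 for rhesus. The overlap to be expected between such short lists was not computed, and no species difference is read from it.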

How the data were processed

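The deposited values are UMI counts that the authors obtained with Cell Ranger 3.1.0, against Panubis1.0 for the baboon and Mmul_10 for the rhesus monkey, per gene and barcode for all barcodes, with no normalization and no cell calling. The 6 libraries held 16875294 to 49803025 UMIs. The PDGF genes, the marker and pathway lists and the comparisons were chosen with earlier results of these data known.

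Cells were called by a rule rebuilt after that of Cell Ranger with scipy 1.17.1, numpy 2.4.6 and pandas 2.3.3 under Python 3.11.15. Barcodes above percentile 99 of the 5000 deepest, divided by 10, were kept. Of those with at least 500 UMIs, barcodes whose profile differed from free RNA (ranks 45001 to 90000, 10000 simulations, adjusted p of 0.01) were added, and cells needed 200 genes. Clusters were made in R 4.3.3 with Seurat 5.3.0 and sctransform 0.4.2 (3000 features, 30 components, resolution 0.5) without the PDGF and pathway genes. They were named from marker lists by a rule written after their leading genes had been seen, and the rule left 1 baboon and 2 rhesus clusters unnamed and out of the tests. No doublet was removed in the main analysis.

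Counts were summed per class and animal, giving 12 baboon and 16 rhesus sums. Genes passing edgeR's filter (12435 and 9404) were tested in edgeR 4.0.16 by quasi-likelihood, each class against the mean of the other classes, with Benjamini-Hochberg adjustment over all genes in a comparison. The SE is the size of the log2 difference divided by the square root of F. Since the same animals gave every class, a fit with the animal as a block was run, and same-animal deviations correlated at r = 0.102 to 0.649 between baboon classes and 0.0869 to 0.622 between rhesus classes. The p-values rest on the spread between these animals within a class, pooled over the classes. Without the block the fit treats the classes of an animal as independent. In the baboon this spread also holds the difference between the chemistries. In data simulated with the depths of these sums, 32 to 78.5% of 200 genes changed 4-fold were called in the baboon classes and 33.5 to 79.5% in the rhesus classes. The simulation held the other genes level across classes and drew each sum independently, with no animal effect shared between classes. The shares in the real data may differ. Intervals are exact (Poisson or Clopper-Pearson, 95%), a count of 0 was taken to allow 3 counts, and both cover counting error only.

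The alternatives were DESeq2 1.42.0, its size factors in edgeR, no count filter, the block, summed comparators, each animal's sum of the tested class left out, cells above the UMI cutoff, doublets removed, resolutions 0.3 and 0.8, classes gated on marker UMIs and, added after the data were seen, the baboon STC1 cluster placed in the stroma-like or a Leydig-like class. Genes named were the PDGF genes, pathway genes called alike in both species or having one of the 2 smallest p in a class, the 3 most correlated genes per PDGF gene and the leading genes of a cluster. Figures were drawn with matplotlib 3.10.9.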

Additional observations from a re-analysis of the deposited data

Results flagged for a closer look

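The baboon cluster led by STC1, COL2A1 and HAPLN1 was given no name and entered no comparison in the main analysis. Yet it held PDGFRA and PDGFRB above the levels of free RNA, and PDGFD near those of named classes. Its 428 cells in baboon 1 and 685 in baboon 2 held 72.6 and 66.9 CPM of PDGFRB, from 47 and 125 UMIs, beside 59.6 and 70.7 in stroma-like cells. PDGFRA stood at 18.5 and 156 CPM there, from 12 and 291 UMIs, and the value of baboon 2 was the highest of any baboon cluster. PDGFD stood at 13.9 and 9.09, from 9 and 17 UMIs. These values lay below free RNA of 1A (15.1) and of baboon 2 (14.4), and free RNA of 1B held 0. Markers of the stroma list made up 0.953% and 0.998% of the UMIs of these cells and markers of the Leydig list 0.0589% and 0.0855%. With the cluster as a class of its own, an alternative added after the data were seen, edgeR called PDGFRA (log2 difference from the mean of the named classes 4.68, SE 0.89, adjusted p = 0.00596) and PDGFRB higher (2.12, SE 0.47, adjusted p = 0.0131) and PDGFB lower (-2.28, SE 0.52, adjusted p = 0.0162). The other 3 PDGF genes were not called, and over the 12562 genes tested 6.78% were called higher and 2.32% lower. At 1000 UMIs per cell, 9.58% of its cells had a PDGFRA UMI and 7.21% a PDGFRB UMI.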

How the results depend on the processing

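The baboon count of called pairs of a PDGF gene and a class, 9 of 36, lay between 6 and 14 over all alternatives, and the rhesus count, 7 of 24, between 2 and 12. Without a filter on low counts 14 baboon and 12 rhesus pairs were called, the latter among 40 tested. The share of all genes called without the filter was not computed. Leaving out the sums of 1 animal gave 6 to 7 baboon calls and 2 to 5 rhesus calls. With the animal as a replicate block edgeR called 13 baboon and 8 rhesus pairs, which included all 9 and 7 called without it. More genes of any kind were called with the block, in every class and direction. In Sertoli-like cells, 2011 against 973 genes were called higher in the baboon and 1322 against 786 in the rhesus monkey. The larger counts are therefore not read as a result about the PDGF genes. PDGFB in baboon Sertoli-like cells reversed at resolution 0.8, to a log2 difference of 0.07 (edgeR adjusted p = 1.00). At that resolution Leydig-like and peritubular myoid-like classes joined the other classes, while the Sertoli-like class had 12877 and 4507 cells in baboons 1 and 2. The part of the changed comparison in the reversal was not tested. Of the single differences called in the baboon, 92 of 105 kept direction and call under settings that kept both animals' sums of the tested class, and 12 kept the direction only. In the rhesus monkey these were 65 of 69 and 4. Placing the STC1 cluster with the stroma-like or a Leydig-like class gave 9 calls of 36 pairs and 13 of 42, since the latter adds a class. No value could be had for the baboon pericyte-like class from cells above the UMI cutoff alone, nor under the marker gate for baboon PDGFD in endothelial-like cells, baboon PDGFRA in stroma-like cells and rhesus PDGFRB in pericyte-like cells. Rhesus PDGFB and PDGFC, counted 4 and 63 times, fell below the count filter.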

Other observations

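The rhesus clusters left without a name also held PDGF transcripts. The cluster led by TOP2A, MKI67 and NUSAP1, genes of dividing cells, held 22.4 CPM of PDGFRB from 4 UMIs in the 89 cells of rhesus 1 and 126 from 61 UMIs in the 275 cells of rhesus 2. Stroma markers were its best list, and PDGFA and PDGFD gave at most 1 UMI each in either animal. The cluster led by LCN2, KRT19 and CHL1 had 54 cells in rhesus 2 and 2 cells in rhesus 1. In rhesus 2 it held 70.5 CPM of PDGFD from 8 UMIs (exact 95% Poisson interval 30.5 to 139), above every named class of that animal by its point value, and 17.6 each of PDGFA and PDGFRB from 2 UMIs each. In rhesus 1 its 2 cells held no PDGF UMI.

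Among the 6 Sertoli-like clusters of the baboon, PDGFA ranged from 13.8 to 28.2 CPM in baboon 1 and from 21.7 to 63.5 in baboon 2. The cluster with the highest value in baboon 1, at 28.2 in 2287 cells, had the lowest in baboon 2, at 21.7 in 277 cells. These 277 cells are the ones described above as richer in stroma markers than the cells of the same cluster in baboon 1. The part of stroma cells in their PDGFA level was not tested.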
